A study of Mus musculus with 48 samples.

Results

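The genes described here are 10 receptor genes of blood cell growth factors and interleukins: Csf3r, Csf2ra, Csf2rb, Csf1r, Il3ra, Kit, Il2ra, Il2rg, Il6ra and Il18r1. They were chosen by name as a receptor family, with earlier results of these data known. Of the 10 genes, 9 had a probe set with their symbol, out of 18193 genes with such a probe set on the array; Il2rg, which encodes the γ chain shared by several interleukin receptors, was not analysed here. The 9 genes had 16 probe sets of their own, and 1 more carried the symbols of both Csf2rb2 and Csf2rb. Every sample was of 32D-BCR/ABL cells: 32D is a mouse myeloid progenitor line, and BCR/ABL, in its p210 form, is the constitutively active tyrosine kinase of chronic myeloid leukaemia. The 4 lines had been transduced with MigRI, a retroviral vector. It was empty, or it held a fusion of C/EBPα and the estrogen receptor (C/EBPα-ER). The fusion was WT, K298E, described in the labels as deficient in DNA binding, or Δ(177-191), described as deficient in binding to CDK2 and CDK4. Each line was profiled at 0, 6, 9 and 12 h after 4-hydroxytamoxifen (4-HT), the ligand of the fusion, with 3 arrays per time and 48 arrays in all. The labels describe 1 line per construct, no untreated culture at a later time, and a culture medium with serum and no named cytokine.

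Growth factors and interleukins reach myeloid cells through 2 kinds of receptor. The granulocyte colony-stimulating factor receptor (Csf3r), the α chains for GM-CSF (Csf2ra), interleukin 3 (Il3ra), interleukin 2 (Il2ra) and interleukin 6 (Il6ra), the β chain shared by GM-CSF, interleukin 3 and interleukin 5 (Csf2rb) and the γ chain Il2rg have no kinase of their own. Most work with Janus kinases and STAT factors, and Il2ra raises the affinity of its complex for interleukin 2. The receptors of M-CSF (Csf1r) and stem cell factor (Kit) are tyrosine kinases, while Il18r1 binds interleukin 18 and, with its partner Il18rap, signals through Myd88 and Irak proteins. C/EBPα is needed for granulocytes to form and is known to bind the Csf3r promoter, whereas Csf1r marks monocytes and macrophages, Kit marks progenitors and mast cells, and the parental 32D line depends on interleukin 3 for growth.

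The values are MAS5 signals, probe set intensities on a linear scale that the submitters deposited; arrays had median signals of 11 to 19. The relative change of a construct is its log2 change from 0 h minus that of vector cells over the same time, on the log2(signal + 3) scale, and errors of log2 values are standard errors (SE) from limma. A difference passed at an adjusted p under 0.05, by limma with the Benjamini-Hochberg method over 27167 probe sets tested. These p-values measure only the spread between arrays of the same group, pooled in the fit over all 16 groups. The labels call the 3 arrays of a group triplicates in one place and separate experiments in another. Esr1, part of which is in the fusion, lay between 5 and 29 in the 12 vector arrays. It was at 1927 to 2607 in WT, 728 to 1599 in K298E and 2787 to 4472 in Δ(177-191) arrays, so the lines also differed in this signal. The Δ(177-191) line stood apart from the others before 4-HT: at 0 h, 28.5% of genes differed between it and vector cells, against 5.71% for WT and 6.45% for K298E cells. Of 12 mast cell and basophil markers, 10 had a median of 14 or less over the arrays. Their summed signal was 194 to 543 in Δ(177-191) cells against 1794 to 2269 in vector, 1517 to 2533 in WT and 1766 to 2092 in K298E cells. The 14 granulocyte markers summed to 456 to 1084 in vector, 1660 to 5366 in WT, 1165 to 2970 in K298E and 5568 to 15143 in Δ(177-191) cells. Lcn2 alone ran from 113 to 12538 and Prtn3 from 149 to 2796, so these sums follow few genes. The 11 monocyte and macrophage markers summed to 872 to 1338, 1588 to 2171, 1701 to 2157 and 3818 to 7230 in the same order. Of these 11, 6 had a median of 14 or less. Adgre1 ran from 475 to 2538, Lyz1 from 32 to 2222, Lyz2 from 38 to 1958 and Cd68 from 178 to 1725, so this sum too follows few genes. In that order, 9 erythroid and megakaryocyte markers, of which Itga2b alone ran from 93 to 1734, summed to 1314 to 1846, 847 to 1914, 1188 to 1452 and 534 to 921. The 11 T and B lymphocyte markers summed to 48 to 223 over the 4 lines and the 10 fibroblast markers to 76 to 226. The 10 progenitor markers fixed for 32D cells summed to 10326 to 15562, with Cd34 at 1 to 16. In these bulk samples, fewer cells of a type and less RNA per cell cannot be told apart.

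After 4-HT, the receptor genes that passed differed by construct. WT cells had lower Il2ra and higher Il18r1 relative to vector cells at 6, 9 and 12 h. For K298E cells Il18r1 alone passed the test. The Δ(177-191) line had lower Il2ra from 6 h on, while Csf2rb, Il3ra, Csf3r and Il18r1 were higher relative to vector cells at 9 and 12 h. Of the 9 receptor genes, each taken by its probe set of highest mean signal, 2 passed in WT cells at each time (1 higher and 1 lower). The share of all 12800 genes that passed was 6.23% at 6 h, 6.09% at 9 h and 7.18% at 12 h. For K298E, 1 of 9 passed at each time, beside 1.29%, 5.15% and 5.6% of all genes. The Δ(177-191) line had 3 of 9 at 6 h (2 higher, 1 lower) and 5 of 9 at 9 h and at 12 h (4 higher, 1 lower), beside 18.2%, 22.3% and 22.3% of all genes. With so few genes the counts describe these receptors and say little of the set. The median relative change of the 9 at 12 h was -0.28 for WT, 0.17 for K298E and -0.20 for Δ(177-191). Over all genes tested it was -0.03, 0.02 and -0.04. At 6 and 9 h the median of the 9 was -0.06 and -0.35 for WT and 0.07 and 0.17 for K298E. The Δ(177-191) median was 0.27 and 0.80 at these times, so its sign differed between times. Its 12 h median was the value of Il6ra, which did not pass. Csf2ra, with 44 of 48 arrays at 14 or less, went from 1.28 ± 0.85 at 9 h to -0.76 ± 0.85 at 12 h, neither passing. Csf3r, Csf2rb, Il3ra and Il18r1 passed as higher at both times. Medians of all genes at 6 and 9 h were -0.04 to -0.01.

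**Figure D1:**
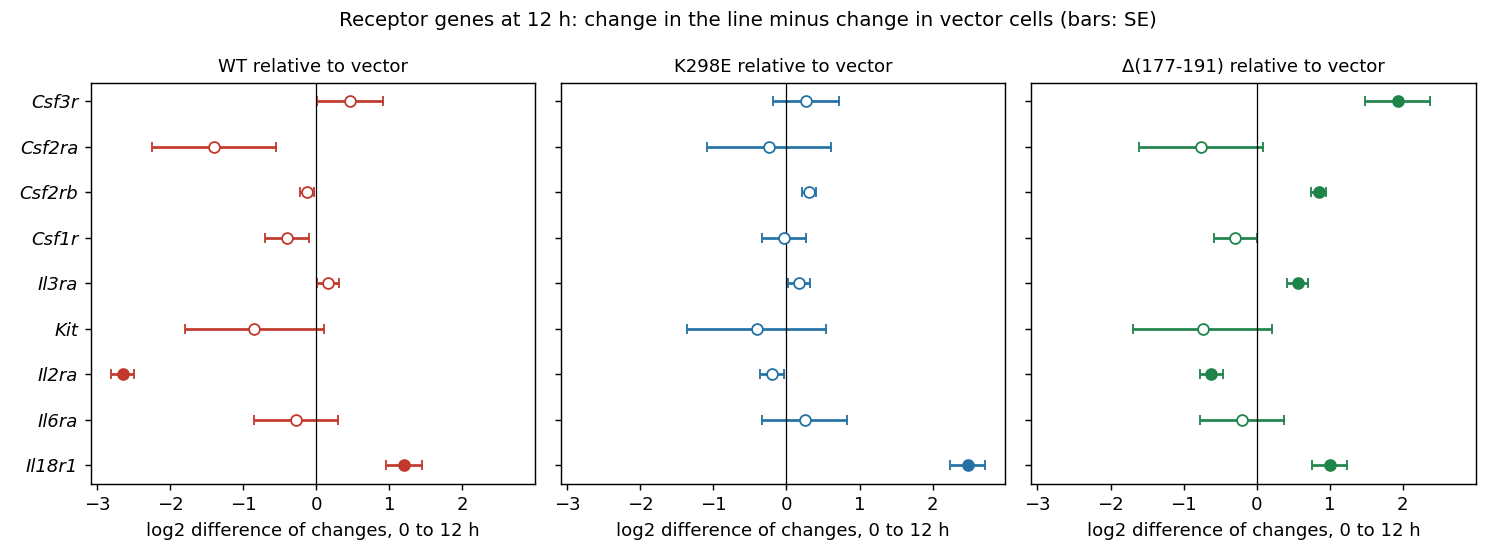
Relative change of each receptor gene at 12 h (log2, change in the construct line minus change in vector cells) in WT, K298E and Δ(177-191) cells, by the probe set of highest mean signal; bars are SE of the limma model on 3 arrays per group, and filled points have an adjusted p under 0.05. Il2ra lies lowest in WT cells at -2.65, Il18r1 lies highest in K298E cells at 2.48, and Csf3r, Csf2rb, Il3ra and Il18r1 are filled to the right in Δ(177-191) cells.

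The start regions of 4 of the genes that passed are printed to show the DNA in front of receptors whose signals went down (Il2ra) or up (Csf3r, Il3ra and Il18r1) in at least 1 line. They are RefSeq sequences of build GRCm38.p6, each from 250 bases before to 50 bases after an annotated start, all on the + strand, 5′ to 3′: Il2ra at chr2:11642542-11642841, Csf3r at chr4:126024409-126024708, Il3ra at chr14:14346245-14346544 and the third annotated start of Il18r1 at chr1:40465756-40466055. Capitals mark matches to a C/EBP core (TTNNGNAA), a STAT core (TTCNNNGAA) or a PU.1 core (GAGGAA), searched on both strands; the C/EBP and PU.1 cores can overlap.
Il2ra: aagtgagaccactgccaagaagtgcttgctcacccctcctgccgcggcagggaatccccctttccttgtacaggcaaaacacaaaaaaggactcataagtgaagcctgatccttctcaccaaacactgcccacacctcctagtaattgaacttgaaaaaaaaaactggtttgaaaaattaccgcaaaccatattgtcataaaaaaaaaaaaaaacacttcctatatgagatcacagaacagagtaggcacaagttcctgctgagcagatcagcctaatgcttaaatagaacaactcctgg
Csf3r: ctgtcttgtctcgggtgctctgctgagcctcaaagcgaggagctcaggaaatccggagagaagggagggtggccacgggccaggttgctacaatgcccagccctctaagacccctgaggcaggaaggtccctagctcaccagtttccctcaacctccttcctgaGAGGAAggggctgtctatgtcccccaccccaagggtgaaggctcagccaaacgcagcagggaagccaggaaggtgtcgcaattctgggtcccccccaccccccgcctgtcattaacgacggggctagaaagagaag
Il3ra: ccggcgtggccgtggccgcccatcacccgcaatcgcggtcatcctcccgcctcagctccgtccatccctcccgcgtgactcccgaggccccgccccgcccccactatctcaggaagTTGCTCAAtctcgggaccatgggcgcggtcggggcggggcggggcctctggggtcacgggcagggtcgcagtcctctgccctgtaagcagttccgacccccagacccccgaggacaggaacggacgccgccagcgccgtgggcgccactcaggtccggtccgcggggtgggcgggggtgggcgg
Il18r1: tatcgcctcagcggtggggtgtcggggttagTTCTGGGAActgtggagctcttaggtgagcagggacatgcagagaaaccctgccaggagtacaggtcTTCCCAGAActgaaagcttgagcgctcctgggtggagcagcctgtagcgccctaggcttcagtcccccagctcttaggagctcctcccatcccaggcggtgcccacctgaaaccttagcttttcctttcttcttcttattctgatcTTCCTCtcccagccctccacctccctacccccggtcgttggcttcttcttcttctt
The Il2ra window held no match to these letters. The Csf3r window held 1 PU.1 core, which began 86 bases before the start, and the Il3ra window 1 C/EBP core, TTGCTCAA, 134 bases before it. The third Il18r1 window held 2 STAT cores, TTCTGGGAA and TTCCCAGAA, 219 and 152 bases before the start, and a PU.1 core on the other strand at 6 bases before it; the other two Il18r1 windows held none. Of 32851 such mouse windows, 40.7% held a C/EBP core, 8.3% a STAT core and 28.3% a PU.1 core, and a match is a description of letters, not a site. Nor does the lack of a match, as for C/EBP in the Csf3r window, show that a site is absent.

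Il2ra encodes the α chain (CD25) of the receptor for interleukin 2, and its signal had the widest span of group means among the 9 main probe sets, 4.0 on the log2 scale. In WT cells the signals of its probe set 1420691_at were 967, 966 and 770 at 0 h, 378, 479 and 428 at 6 h, 146, 131 and 150 at 9 h and 102, 99 and 96 at 12 h. All 9 WT arrays after 4-HT lay below the lowest array at 0 h, and the groups of the successive times did not overlap. In vector cells the signals were 1154, 1131 and 1093 at 0 h, 1563, 1705 and 1629 at 6 h, 715, 725 and 824 at 9 h and 780, 754 and 868 at 12 h. The vector signal was higher by 0.53 ± 0.11 at 6 h (log2 ± SE; adjusted p = 0.000414, limma). After median centring that change was 0.44 (adjusted p = 0.0728), and on the other Il2ra probe set, 1420692_at, it was 0.23 ± 0.09 (adjusted p = 0.108). At 12 h they were lower than at 0 h, by -0.49 ± 0.11 (adjusted p = 0.00129), or -0.46 without the arrays numbered 1 (adjusted p = 0.0549) and after median centring (adjusted p = 0.0768). Set against vector cells, WT cells were lower by -1.60 ± 0.16 at 6 h, -2.05 ± 0.16 at 9 h and -2.65 ± 0.16 at 12 h (adjusted p = 4.38e-10, 6.88e-13 and 4.21e-16, limma), the last a 6.27-fold fall. The WT line's own change at 12 h was -3.14 ± 0.11 (adjusted p = 1.23e-24), a signal of 901 ± 113 going to 99.0 ± 3.0 (SD, n = 3).

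The K298E line did not share this course. Its Il2ra signals were 646, 739 and 771 at 0 h, 883, 884 and 856 at 6 h, 475, 435 and 470 at 9 h and 428, 470 and 429 at 12 h. They lay above the 0 h arrays at 6 h and below them at 9 and 12 h, as in vector cells, and the relative changes of -0.25 ± 0.16, -0.06 ± 0.16 and -0.20 ± 0.16 did not pass (adjusted p = 0.734, 0.93 and 0.64, limma). The Δ(177-191) signals were 620, 721 and 422 at 0 h, 244, 228 and 258 at 6 h, 249, 242 and 267 at 9 h and 290, 236 and 267 at 12 h. All 9 arrays after 4-HT lay below those at 0 h, but the 3 later times overlapped each other. The relative change was -1.76 ± 0.16 at 6 h (adjusted p = 9.42e-12), -0.60 ± 0.16 at 9 h (adjusted p = 0.00493) and -0.62 ± 0.16 at 12 h (adjusted p = 0.00322, limma). Without the arrays numbered 2 the 9 and 12 h values were -0.43 and -0.42 (adjusted p = 0.166 and 0.178), and without those numbered 1 the 9 h value was -0.59 (adjusted p = 0.0738). The 12 h value was -0.65 (adjusted p = 0.0571) after median centring, and the 9 h value was not called with only the groups compared in the fit (adjusted p = 0.0551). The WT signals went on down between 6 and 12 h, while the Δ(177-191) signals lay in one range from 6 h on. The difference between the mean changes over 6, 9 and 12 h was tested directly: WT minus K298E was -1.93 ± 0.13 (adjusted p = 6.72e-15) and WT minus Δ(177-191) was -1.11 ± 0.13 (adjusted p = 6.62e-09, limma).

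The other Il2ra probe set, 1420692_at, gave the same order of lines at 12 h, with larger falls in WT and Δ(177-191) cells. Its WT signals were 606, 625 and 661 at 0 h, 206, 220 and 206 at 6 h, 79, 56 and 70 at 9 h and 42, 42 and 34 at 12 h, again without overlap between times. At 12 h the vector arrays stood at 431, 468 and 414, the K298E arrays at 279, 252 and 254 and the Δ(177-191) arrays at 118, 121 and 118, so that no pair of lines overlapped. The relative change at 12 h was -2.98 ± 0.13 in WT (adjusted p = 3.14e-20), 0.15 ± 0.13 in K298E (adjusted p = 0.715) and -0.95 ± 0.13 in Δ(177-191) cells (adjusted p = 4.17e-07, limma). The gene lies at chr2:11642792-11693194 (GRCm38.p6). The summed lymphocyte markers, 48 to 142 in WT and 59 to 136 in vector cells, lay in one range. In WT cells between 0 and 12 h, the summed mast cell and basophil markers went from 2181 to 2533 down to 1517 to 1720, and the erythroid and megakaryocyte markers from 1648 to 1914 down to 847 to 914. The granulocyte markers went from 1660 to 1709 up to 5211 to 5366. The part of these lists in the Il2ra values was not tested.

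**Figure D2:**
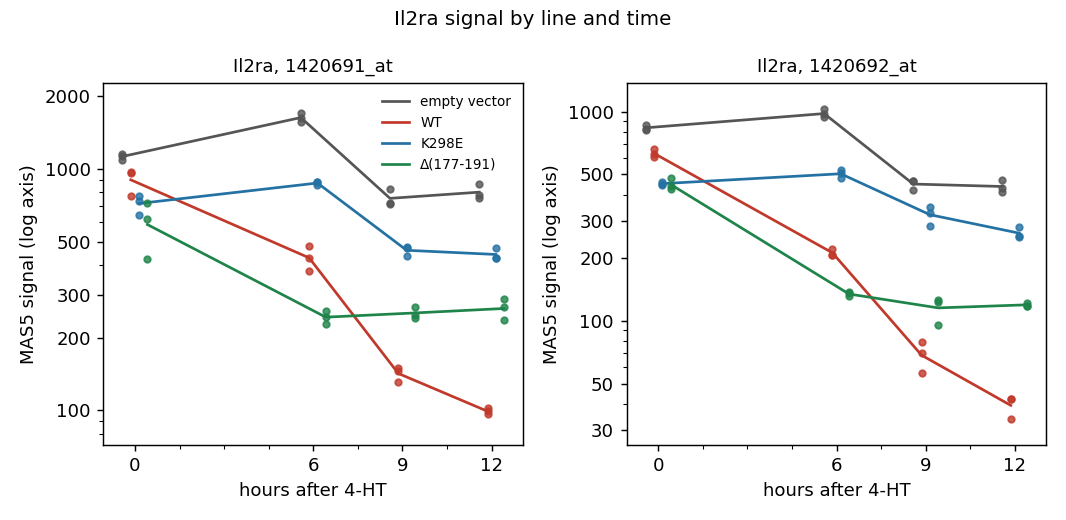
Signal of the 2 Il2ra probe sets (MAS5 signal, log axis) against hours after 4-HT; points are arrays, shifted sideways by line, and lines join the means of 3 arrays. On 1420691_at the WT arrays go from 770 to 967 at 0 h down to 96 to 102 at 12 h, the Δ(177-191) arrays level off after 6 h, and the vector and K298E arrays go up at 6 h and then down.

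Il18r1, the ligand-binding chain of the interleukin 18 receptor, was the gene that passed in most comparisons beside Il2ra, and its relative rises had different origins in the lines. In vector cells its signals (probe set 1421628_at) were 131, 104 and 106 at 0 h, 73, 80 and 81 at 6 h, 35, 57 and 31 at 9 h and 37, 46 and 34 at 12 h. All 9 later vector arrays lay below those at 0 h, a change of -1.48 ± 0.17 at 12 h (adjusted p = 1.37e-08, limma). In K298E cells they were 57, 48 and 57 at 0 h, 111, 135 and 135 at 6 h, 129, 115 and 106 at 9 h and 127, 101 and 107 at 12 h. Here all 9 later arrays lay above those at 0 h, and the line's own change was 1.19 ± 0.17 at 6 h and 1.01 ± 0.17 at 12 h (adjusted p = 2.09e-06 and 0.000159). The relative changes of 1.71 ± 0.24, 2.51 ± 0.24 and 2.48 ± 0.24 at 6, 9 and 12 h (adjusted p = 1.16e-05, 9.81e-10 and 1.13e-09, limma) therefore joined a rise in K298E cells to a fall in vector cells. The line also started lower, at 54.0 ± 5.2 against 114 ± 15 in vector cells (SD, n = 3).

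In WT cells the Il18r1 signals were 206, 230 and 124 at 0 h, 219, 256 and 249 at 6 h, 165, 167 and 190 at 9 h and 146, 169 and 133 at 12 h. Of the 9 later arrays, 2 lay above and none below the range at 0 h, where 1 array stood at 124, and the line's own changes of 0.41 ± 0.17 at 6 h and -0.28 ± 0.17 at 12 h did not pass (adjusted p = 0.0735 and 0.273, limma). The relative changes were 0.93 ± 0.24, 1.39 ± 0.24 and 1.20 ± 0.24 (adjusted p = 0.013, 8.32e-05 and 0.000607), while the vector line's own signal had fallen. The 6 h value did not pass without the WT array at 124 (0.66, adjusted p = 0.0968) or without vector array 1 at 0 h (0.83, adjusted p = 0.0553), nor after median centring (1.08, adjusted p = 0.0531) or without the arrays numbered 1 (0.94, adjusted p = 0.146) or 3 (0.71, adjusted p = 0.207). Without the arrays numbered 3 the 9 h value was 0.94 (adjusted p = 0.0573). The Δ(177-191) signals were 390, 308 and 488 at 0 h, 323, 335 and 319 at 6 h, 241, 242 and 261 at 9 h and 238, 320 and 286 at 12 h. They were above those of every other line at every time, and 5 of the 9 later arrays lay below the range at 0 h. The line's own change at 12 h was -0.47 ± 0.17 (adjusted p = 0.0361), which was not called without its array 3 (-0.31, adjusted p = 0.279) or 1 at 0 h (-0.47, adjusted p = 0.0788), or array 1 (-0.36, adjusted p = 0.199) or 3 at 12 h (-0.49, adjusted p = 0.065). Median centring ended that call too (-0.47, adjusted p = 0.159). The relative change was 0.27 ± 0.24 at 6 h (adjusted p = 0.598), 0.80 ± 0.24 at 9 h (adjusted p = 0.0149) and 1.0 ± 0.24 at 12 h (adjusted p = 0.0018, limma). The 9 h value was lost without vector array 1 at 0 h (0.70), vector array 3 at 9 h (0.64) or Δ(177-191) array 2 at 0 h (0.64; adjusted p = 0.0561, 0.075 and 0.0775). It was also lost with a pseudocount of 32 (0.42, adjusted p = 0.14), after median centring (0.67, adjusted p = 0.193), without the arrays numbered 1 (0.64, adjusted p = 0.245) and with only the groups compared in the fit (adjusted p = 0.0579).

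The accessory chain of the same receptor, Il18rap, was in a list of other receptors. Relative to vector cells at 12 h it was higher in K298E and WT cells, and it did not pass in Δ(177-191) cells. Between 0 and 12 h its K298E signal went from 198 ± 32.4 to 306 ± 14.2 (SD, n = 3). The WT signal was 322 ± 38.4 and 350 ± 17.6 at these times, and that of vector cells 218 ± 12.6 and 149 ± 19.6. The relative change was 1.17 ± 0.19 in K298E cells (adjusted p = 5.17e-05) and 0.67 ± 0.19 in WT cells (adjusted p = 0.0262, limma). For Il18r1, the mean change of WT minus that of K298E cells was -1.06 ± 0.20 (adjusted p = 0.000101), and that of WT minus Δ(177-191) cells was 0.48 ± 0.20 (adjusted p = 0.0824).

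Csf2rb, the β chain through which GM-CSF, interleukin 3 and interleukin 5 signal, was well above background in all lines, with signals of 1216 to 2671 on probe set 1455660_at. The Δ(177-191) signals were 1446, 1367 and 1437 at 0 h, 1968, 1772 and 1875 at 6 h, 2671, 2597 and 2270 at 9 h and 2584, 2326 and 2408 at 12 h. All 9 later arrays lay above those at 0 h, and the arrays at 9 and 12 h lay above those at 6 h. The vector arrays were at 1276 to 1436 at 0 h, 1395 to 1429 at 6 h, 1216 to 1261 at 9 h and 1289 to 1295 at 12 h. All 3 vector arrays at 9 h lay below those at 0 h. Relative to vector cells the Δ(177-191) line rose by 0.34 ± 0.10 at 6 h, 0.95 ± 0.10 at 9 h and 0.85 ± 0.10 at 12 h (adjusted p = 0.0137, 5.57e-10 and 7.44e-09, limma), the last a 1.81-fold rise. The 6 h value was lost without vector array 3 at 0 h (0.30, adjusted p = 0.0533), after median centring (0.30, adjusted p = 0.477) and without the arrays of any 1 number (0.31 to 0.39, adjusted p = 0.0882 to 0.2). The probe set 1421326_at gave 0.97 ± 0.16 at 12 h (adjusted p = 5.78e-06), and the probe set shared with Csf2rb2, 1450200_s_at, which cannot separate these near-identical genes, gave 0.82 ± 0.16 (adjusted p = 0.000125).

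The relative change of Csf2rb did not pass in WT or K298E cells. WT arrays stood at 2055, 2129 and 2254 at 0 h, 2286, 2129 and 2198 at 6 h, 1969, 1724 and 1763 at 9 h and 1866, 1818 and 1889 at 12 h. They began above the vector arrays and 6 of the 9 later ones lay below the range at 0 h, with relative changes of -0.02, -0.11 and -0.13 (SE 0.10; adjusted p = 0.971, 0.734 and 0.62, limma). The WT line's own change at 12 h was -0.21 ± 0.07 (adjusted p = 0.0244), or -0.01 (adjusted p = 0.987) with arrays centred on their medians. It was not called without WT array 3 (-0.17, adjusted p = 0.121) or 2 at 0 h (-0.21, adjusted p = 0.0511), or array 1 (-0.21, adjusted p = 0.0529) or 2 at 12 h (-0.19, adjusted p = 0.0841). That change did not pass on 1421326_at (-0.10 ± 0.11, adjusted p = 0.578) or 1450200_s_at (-0.20 ± 0.11, adjusted p = 0.217, limma). As the mean over all probe sets of Csf2rb it was -0.15 (adjusted p = 0.153). K298E arrays stood at 1715, 1771 and 1846 at 0 h and at 2115, 2191 and 1986 at 12 h, without overlap, but the relative change of 0.31 ± 0.10 did not pass (adjusted p = 0.0675). The mean change in WT cells was lower than in Δ(177-191) cells by -0.80 ± 0.08 (adjusted p = 2.02e-10) and than in K298E cells by -0.30 ± 0.08 (adjusted p = 0.00765, limma). The difference from K298E was not called without the arrays numbered 2 (-0.29, adjusted p = 0.136) or 3 (-0.28, adjusted p = 0.143), or after median centring (-0.16, adjusted p = 0.658). Nor did it pass on 1421326_at (-0.28 ± 0.13, adjusted p = 0.147) or 1450200_s_at (-0.25 ± 0.13, adjusted p = 0.239, limma).

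The α chains that pair with this β chain differed in how much could be read. Il3ra, the interleukin 3 receptor α chain, had signals of 115 to 238 over the 48 arrays. The Δ(177-191) signals were 138, 179 and 180 at 0 h, 207, 189 and 208 at 6 h, 238, 221 and 204 at 9 h and 236, 199 and 189 at 12 h. The vector arrays were 195, 221 and 200, 166, 181 and 183, 115, 159 and 165, and 192, 164 and 168 at the same times. All 9 later Δ(177-191) arrays lay above their 0 h arrays and all 9 later vector arrays below theirs. The relative change was 0.50 ± 0.15 at 6 h, 0.91 ± 0.15 at 9 h and 0.56 ± 0.15 at 12 h (adjusted p = 0.0219, 1.41e-05 and 0.00721, limma), against 0.12 to 0.19 in WT and 0.17 to 0.44 in K298E cells, none of which passed. The Δ(177-191) line's own changes of 0.29 ± 0.11 at 6 h and 0.33 ± 0.11 at 12 h (adjusted p = 0.0498 and 0.0216) rested on single arrays. The 12 h value was 0.20 (adjusted p = 0.243) without array 1 at 0 h, which stood at 138, and 0.23 (adjusted p = 0.177) without array 1 at 12 h; the 6 h value, at the threshold, was lost under 43 of 61 alternatives. The relative change at 6 h was lost without any one of 4 arrays, Δ(177-191) array 1 at 0 h (0.37), vector array 2 at 0 h (0.45), vector array 1 (0.46) and Δ(177-191) array 3 at 6 h (0.47). After median centring the 6 h value was 0.46 (adjusted p = 0.37), and without the arrays of any 1 number it was 0.35 to 0.58 (adjusted p = 0.0687 to 0.167). The 12 h value was lost after median centring (0.53, adjusted p = 0.219) and without the arrays numbered 1 (0.45, adjusted p = 0.05003) or 2 (0.55, adjusted p = 0.114). The mean change in WT cells was lower than in Δ(177-191) cells by -0.50 ± 0.13 (adjusted p = 0.00255), a difference of -0.30 (adjusted p = 0.384) after median centring and -0.34 (adjusted p = 0.0612) without the arrays numbered 1. Csf2ra, the GM-CSF receptor α chain, gave no such reading. Its probe set 1420703_at had a median of 4.5, and 44 of 48 arrays were at 14 or less, which is the median of all signals. No comparison of it passed.

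**Figure D3:**
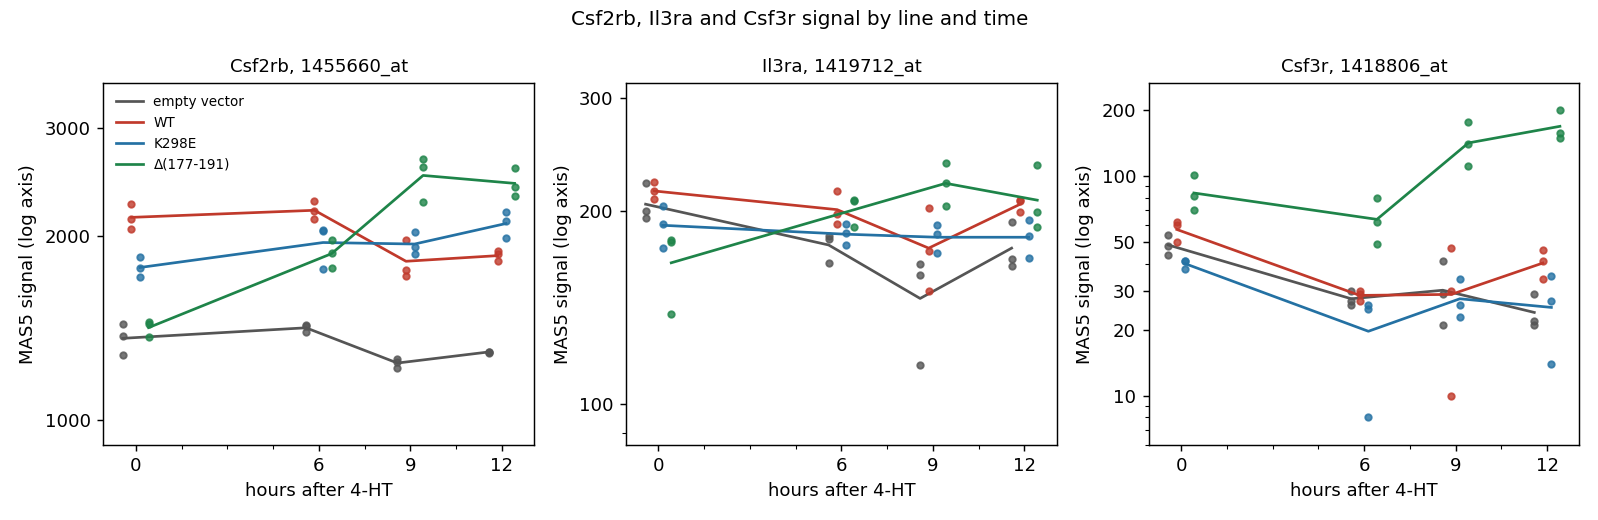
Signals of Csf2rb, Il3ra and Csf3r (MAS5 signal, log axes with different ranges) against hours after 4-HT; points are arrays, shifted sideways by line, and lines join the means of 3 arrays. The Δ(177-191) arrays at 12 h lie above those at 0 h in all 3 panels, at 2326 to 2584, 189 to 236 and 150 to 200. For Csf3r the 6 h arrays of this line, at 49 to 80, overlap those at 0 h.

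Csf3r, the receptor of granulocyte colony-stimulating factor and a textbook target of C/EBPα, did not pass in WT cells relative to vector cells. Its WT signals (probe set 1418806_at) were 60, 62 and 50 at 0 h, 30, 29 and 27 at 6 h, 10, 30 and 47 at 9 h and 46, 34 and 41 at 12 h. In vector cells they were 54, 44 and 48, then 27, 26 and 30, 41, 21 and 29, and 29, 22 and 21 at the same times, and in K298E cells 41, 38 and 41, then 8, 26 and 25, 34, 26 and 23, and 35, 14 and 27. In these 3 lines all 9 arrays after 4-HT lay below those of the same line at 0 h. The fall passed at 6 h in WT (-0.93 ± 0.32, adjusted p = 0.0249) and K298E cells (-1.05 ± 0.32, adjusted p = 0.026) and at 12 h in vector cells (-0.94 ± 0.32, adjusted p = 0.0384, limma). The WT call was lost without array 1 or 2 at 0 h or 2 or 3 at 6 h, at -0.87 to -0.93, and the K298E call without any array at 0 h (-1.03 to -1.08) or without the array at 8 (-0.59, adjusted p = 0.322). Without vector array 1, 2 or 3 at 0 h or 2 or 3 at 12 h the vector change at 12 h was not called either (-0.86 to -1.01), nor after median centring (-0.91, adjusted p = 0.0819). The relative changes in WT cells were -0.18, -0.44 and 0.46 (SE 0.45; adjusted p = 0.934, 0.769 and 0.742).

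The Δ(177-191) line went the other way for Csf3r. Its signals were 81, 101 and 70 at 0 h, 62, 49 and 80 at 6 h, 176, 140 and 111 at 9 h and 200, 158 and 150 at 12 h. The arrays at 9 and 12 h lay above all those at 0 h and above every array of the other lines, while those at 6 h overlapped the 0 h arrays. The relative change was 0.36 ± 0.45 at 6 h (adjusted p = 0.738), 1.40 ± 0.45 at 9 h (adjusted p = 0.0228) and 1.93 ± 0.45 at 12 h (adjusted p = 0.00119, limma), the last a 3.82-fold difference to which a rise in the line itself of 0.99 ± 0.32 (adjusted p = 0.016) and the fall in vector cells both contributed. The 9 h value was lost without vector array 1 at 0 h (1.33), vector array 2 at 9 h (1.19), Δ(177-191) array 3 at 0 h (1.28) or its array 1 at 9 h (1.24), after median centring (1.27, adjusted p = 0.0577) and without the arrays numbered 2 (1.39, adjusted p = 0.158) or 3 (1.45, adjusted p = 0.117). The same held for the line's own 12 h change without its array 3 at 0 h or array 1 at 12 h (0.87 in each case; adjusted p = 0.0789 and 0.0797) or the arrays numbered 3 (0.95, adjusted p = 0.119). The mean change in WT cells was lower than in Δ(177-191) cells by -1.28 ± 0.37 (adjusted p = 0.00846), a difference of -1.44 (adjusted p = 0.0517) without the arrays numbered 2. Granulocyte markers were at 5568 to 5907 in this line at 0 h and at 8252 to 10521 at 12 h, with Camp, Elane and Mmp8 at medians of 7.5, 5 and 6 over all arrays; their part in the Csf3r values was not tested.

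Csf1r, the M-CSF receptor of monocytes and macrophages, separated the Δ(177-191) line before any 4-HT. On probe set 1423593_a_at its signals at 0 h were 80, 79 and 81 in Δ(177-191), 38, 48 and 36 in vector, 56, 45 and 56 in WT and 42, 38 and 40 in K298E cells. The Δ(177-191) arrays lay above all others, by 0.94 ± 0.21 over vector cells (adjusted p = 0.000636, limma). The contrast was wider on 1419872_at, where the Δ(177-191) arrays were 209, 241 and 221 at 0 h, 94, 80 and 73 at 6 h, 77, 102 and 112 at 9 h and 201, 162 and 160 at 12 h. All vector, WT and K298E arrays were at 17 to 38, so the Δ(177-191) line was above them throughout, fell after 4-HT and had returned toward its starting level by 12 h. That set put the line 3.15 ± 0.21 above vector cells at 0 h (adjusted p = 2.16e-16), with a relative change of -1.60 ± 0.29 at 6 h, -1.28 ± 0.29 at 9 h and -0.37 ± 0.29 at 12 h (adjusted p = 6.7e-05, 0.00114 and 0.495). The 9 h value was lost without the arrays numbered 2 (-1.22, adjusted p = 0.0621). The third probe set, 1419873_s_at, was 2.45 ± 0.37 higher in Δ(177-191) cells at 0 h (adjusted p = 8.53e-07), and its relative change at 6 h of -1.39 ± 0.52 did not pass (adjusted p = 0.0682). The line's own change at 6 h on that set was -1.12 ± 0.37 (adjusted p = 0.0204), lost without array 2 at 0 h (-0.97, adjusted p = 0.0937) or at 6 h (-0.96, adjusted p = 0.0917). On 1423593_a_at the relative changes were -0.51, -0.40 and -0.29 (SE 0.30), and none passed (adjusted p = 0.33, 0.446 and 0.644, limma). The probe sets had the same sign and differed in size and in call. The mean over all probe sets of Csf1r passed at 6 h (-1.17, adjusted p = 0.00173) and 9 h (-0.95, adjusted p = 0.0108) and not at 12 h (-0.49, adjusted p = 0.277). The summed monocyte and macrophage markers of the line were at 7070 to 7230 at 0 h, 4851 to 4937 at 6 h, 3897 to 4331 at 9 h and 3818 to 4283 at 12 h; their part in the Csf1r values was not tested.

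**Figure D4:**
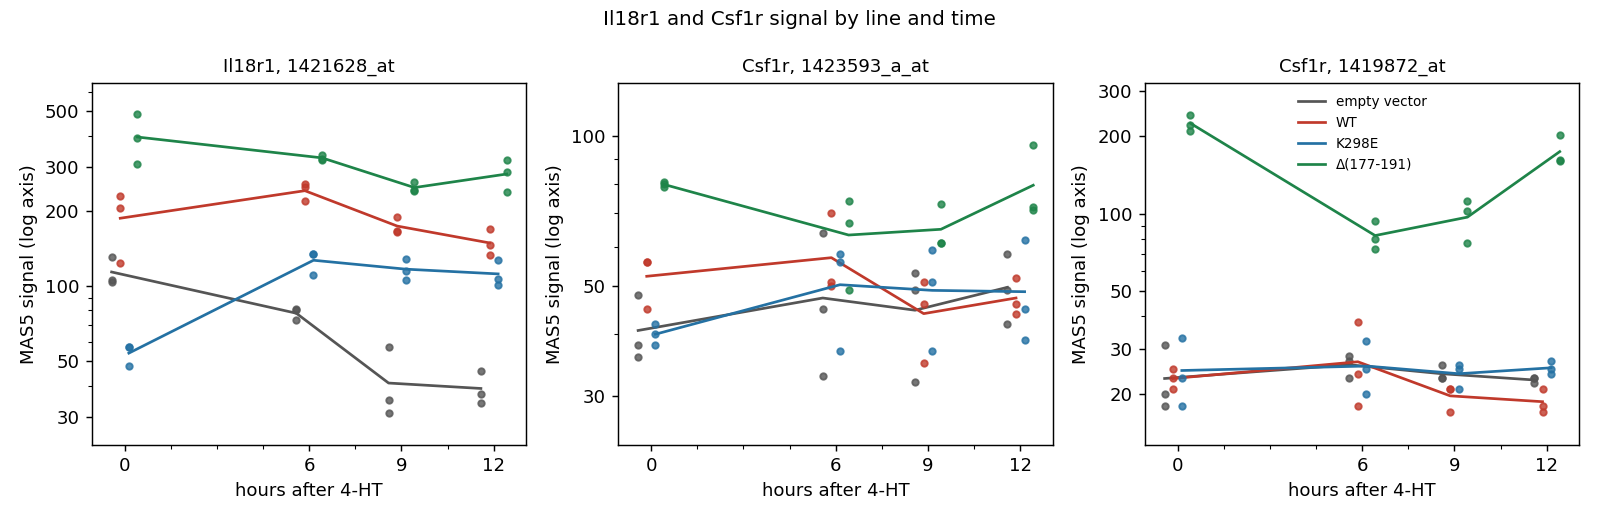
Signals of Il18r1 and of 2 Csf1r probe sets (MAS5 signal, log axes with different ranges) against hours after 4-HT; points are arrays, shifted sideways by line, and lines join the means of 3 arrays. Il18r1 goes down in vector cells to 34 to 46 and up in K298E cells to 101 to 127 at 12 h, and on 1419872_at the Δ(177-191) arrays dip to 73 to 94 at 6 h while all other arrays stay at 17 to 38.

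No change in the main probe set of Kit or Il6ra passed. The main Kit probe set, 1415900_a_at, ranged from 1 to 28 with a median of 8, and 40 of 48 arrays were at 14 or less. The stem cell factor receptor was thus near the floor of the arrays in all lines, with no call. Il6ra, the interleukin 6 receptor α chain, ranged from 5 to 54 on 1422270_a_at with a median of 33, and no comparison of it passed. Its medians over 12 arrays were 31.5 for vector, 35.0 for WT, 22.5 for K298E and 44.0 for Δ(177-191). On 1452416_at the vector, WT and K298E medians were 2.0, 2.5 and 4.0 and the Δ(177-191) median was 20.5, with 10 of its 12 arrays above every vector array. That probe set was 1.53 ± 0.52 higher in Δ(177-191) than in vector cells at 0 h (adjusted p = 0.0261, limma), with Δ(177-191) arrays at 25, 7 and 16; the call was lost without array 1 or 3 of either group, at 1.19 to 1.47. With vector signals under 14, these differences are no measured size.

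At 0 h the lines already differed in several receptors. Of the 9 genes, 2 passed between WT and vector cells (2 higher), 3 between K298E and vector cells (1 higher, 2 lower) and 4 between Δ(177-191) and vector cells (2 higher, 2 lower), against the shares of all genes given above. Csf2rb was higher in WT (0.66 ± 0.07, adjusted p = 5.16e-09) and K298E cells (0.39 ± 0.07, adjusted p = 0.00027, limma) and stood at 0.06 ± 0.07 in Δ(177-191) cells (adjusted p = 0.653). The K298E value was 0.34 (adjusted p = 0.0868) without the arrays numbered 2 and 0.35 (adjusted p = 0.332) after median centring. On the other Il2ra probe set, 1420692_at, WT cells were also lower (-0.40 ± 0.09, adjusted p = 0.00561), which was lost after median centring (-0.55, adjusted p = 0.114) and without the arrays numbered 2 or 3 (-0.41 and -0.42); on 1420691_at the WT value was -0.33 ± 0.11 (adjusted p = 0.092). That set was lower in K298E (-0.65 ± 0.11, adjusted p = 0.000111) and Δ(177-191) cells (-0.97 ± 0.11, adjusted p = 2.23e-09). Il18r1 was higher in WT (0.66 ± 0.17, adjusted p = 0.0144) and Δ(177-191) cells (1.75 ± 0.17, adjusted p = 2.71e-11) and lower in K298E cells (-1.03 ± 0.17, adjusted p = 6.11e-05, limma). The WT call on Il18r1 was lost without WT array 1 (0.57) or 2 (0.49, adjusted p = 0.187) or vector array 2 (0.60) or 3 (0.62), and after median centring (0.52, adjusted p = 0.295). Il3ra was lower in Δ(177-191) cells (-0.31 ± 0.11, adjusted p = 0.0309), which was lost without the array at 138 (-0.19, adjusted p = 0.304) or vector array 2 (-0.26) or 3 (-0.33), and after median centring (-0.37, adjusted p = 0.165). The relative changes above start from these unequal levels.

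The receptors that passed against their own line's 0 h also differed by line. In vector cells 3 of 9 passed, all lower (Csf3r, Il2ra and Il18r1), beside 17.4% of all genes. In WT cells 2 of 9 passed, both lower (Csf2rb, on its main probe set alone, and Il2ra), beside 30.9%. In K298E cells Il18r1 was higher and Il2ra lower, beside 2.32%. Of the 9, 5 passed for Δ(177-191), with Csf3r, Csf2rb and Il3ra higher and Il2ra and Il18r1 lower, beside 30.4% of all genes. At 6 h the counts were 2 of 9 in vector cells (Il2ra higher, Il18r1 lower) beside 20.4%, 2 in WT cells (Csf3r and Il2ra lower) beside 32.4%, 2 in K298E cells (Il18r1 higher, Csf3r lower) beside 12.4% and 3 in Δ(177-191) cells (Csf2rb and Il3ra higher, Il2ra lower) beside 30.5%. The early Il18r1 fall in vector cells (-0.52 ± 0.17, adjusted p = 0.0302, limma) was not called without array 1 at 0 h (-0.42, adjusted p = 0.169) or without any array at 6 h (-0.47 to -0.55), nor after median centring (-0.61, adjusted p = 0.0812). Il2ra was the receptor that ended lower in all 4 lines at 12 h, by -0.49 for vector, -0.69 for K298E, -1.11 for Δ(177-191) and -3.14 for WT (SE 0.11 each).

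Between the fusions, 3 of the 9 receptors differed in mean change between WT and K298E cells (Il2ra, Il18r1 and Csf2rb, all lower in WT), beside 17.5% of all genes. The Csf2rb difference passed on its main probe set alone. Between WT and Δ(177-191) cells 4 of 9 differed (Il2ra, Csf2rb, Il3ra and Csf3r, all lower in WT), beside 25.3%. On the 1419872_at probe set of Csf1r the difference ran the other way, at 0.88 ± 0.24 (adjusted p = 0.0057, limma), where the Δ(177-191) signals had gone down. It was not called without the arrays numbered 2 (0.89, adjusted p = 0.0938) or 3 (0.90, adjusted p = 0.0589).

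The partners of these receptors were read from 4 further lists. Among 24 tested of 32 other cytokine receptor chains, 0 were higher and 2 lower in WT cells at 12 h relative to vector cells, 2 higher and 0 lower in K298E and 4 higher and 1 lower in Δ(177-191) cells, with medians of -0.15, 0.20 and 0.23. Of all genes, 7.18%, 5.6% and 22.3% passed in these comparisons, with medians of -0.03, 0.02 and -0.04, so the count of 5 of 24 in Δ(177-191) cells was near the share of all genes. Lower in WT cells were Il4ra, the chain shared by interleukins 4 and 13, from 567 ± 49.7 to 178 ± 10.0 (SD, n = 3; relative change -1.22 ± 0.12, adjusted p = 1.58e-10), and Csf2rb2, the second mouse β chain, used by interleukin 3 (-0.56 ± 0.11, adjusted p = 0.000606, limma). In K298E cells Ifnar1, a chain of the type I interferon receptor (0.72 ± 0.20), and Crlf2, the TSLP receptor chain (0.37 ± 0.10), were higher relative to vector cells, going from 133 ± 5.03 to 78.3 ± 11.2 and from 751 ± 44.9 to 569 ± 20.8 in vector cells. The Δ(177-191) line had higher Il10rb, a chain shared by receptors of the interleukin 10 family, going from 383 ± 19.3 to 733 ± 26.0 (1.36 ± 0.13, adjusted p = 2.59e-11). Il20rb was higher too (adjusted p = 0.000678), going from 6.67 ± 5.51 to 59.7 ± 6.81 with vector cells at 9.0 and 6.0. As 3 of these 4 means were under 14, no size is given. Il27ra was lower (-1.71 ± 0.54, adjusted p = 0.0215, limma). It went from 49.7 ± 5.77 to 15.0 ± 4.36, close to 14, so this size is uncertain. Vector cells had Il27ra at 74.3 ± 29.1 and 80.7 ± 24.6.

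Among 21 tested of 26 other receptor kinases and receptors of the interleukin 1 and TNF families, 3 were higher and 2 lower in WT, 4 and 0 in K298E and 5 and 1 in Δ(177-191) cells, with medians of 0.04, 0.38 and 0.25. These counts stand beside the same 7.18%, 5.6% and 22.3% of all genes and medians of -0.03, 0.02 and -0.04. Tnfrsf9, the costimulatory receptor 4-1BB, had relative changes of opposite sign in WT (-1.38 ± 0.18, adjusted p = 4.43e-07) and K298E cells (1.62 ± 0.18, adjusted p = 3.87e-08, limma). Its signal went from 270 ± 24.4 to 95.7 ± 9.81 in vector cells and from 383 ± 14.6 to 50.7 ± 4.73 in WT cells, so it fell in both. The K298E signal was 132 ± 8.5 at 0 h and 147 ± 12.5 at 12 h. Tnfrsf14, the receptor HVEM, was higher in WT (adjusted p = 2.29e-05) and Δ(177-191) cells (adjusted p = 0.0229, limma), with signals going from 20.3 ± 12.3 to 119 ± 12.1 and from 39.3 ± 9.29 to 67.7 ± 4.93 (SD, n = 3). Vector cells were at 7.33 ± 4.93 and 1.67 ± 0.577, under 14, so no size is given. The receptor kinase gene Axl was lower in both (-0.72 ± 0.13 and -0.88 ± 0.13). Its relative Tyro3 was higher in Δ(177-191) cells (1.29 ± 0.25, adjusted p = 0.000118, limma).

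Of 39 tested genes of JAK-STAT signalling and its feedback, out of 41, 1 was higher and 7 lower in WT, 6 and 1 in K298E and 12 and 6 in Δ(177-191) cells, with medians of -0.07, 0.18 and 0.21, beside 7.18%, 5.6% and 22.3% of all genes with medians of -0.03, 0.02 and -0.04. Irak3, an inhibitor of interleukin 1 and interleukin 18 type signalling, went from 134 ± 13.5 to 497 ± 17.8 in WT cells (relative change 2.46 ± 0.30, adjusted p = 8.13e-08, limma) and was also higher in K298E cells (1.44 ± 0.30). Stat5a, a STAT factor downstream of the β chain and of BCR/ABL, was lower in WT (-0.79 ± 0.20, adjusted p = 0.00933) and Δ(177-191) cells (-1.33 ± 0.20, adjusted p = 1.81e-06), and Cblb, a ubiquitin ligase, in WT cells (-1.02 ± 0.21). For Δ(177-191), the kinase gene Tyk2 (1.21 ± 0.12) and the feedback inhibitor gene Socs1 (1.66 ± 0.18) were higher and Inpp5d, the phosphatase SHIP1, lower (-1.0 ± 0.14). In K298E cells Socs3 was higher (0.81 ± 0.24) and Socs5 lower (-0.54 ± 0.15), both feedback inhibitors of cytokine receptors.

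Few ligands of these receptors were tested, 7 of 16, and those that passed were all relatively higher: 3 for WT, 1 for K298E and 3 for Δ(177-191), with medians of 0.64, 0.72 and 0.63. Over all genes 7.18%, 5.6% and 22.3% passed, with medians of -0.03, 0.02 and -0.04. Il4 went from 81.3 ± 6.66 to 673 ± 26.0 in WT cells (SD, n = 3; 3.62 ± 0.37, adjusted p = 1.15e-09, limma). The Il6 gene went from 82.3 ± 19.3 to 199 ± 5.03 in WT cells (1.65 ± 0.39). In Δ(177-191) cells it went from 6.67 ± 5.51, under 14, to 42.7 ± 12.7 (adjusted p = 4.03e-07, limma). Vector cells had Il6 at 283 ± 18.6 at 0 h and 216 ± 6.08 at 12 h, so neither line had a higher mean signal than vector cells. Csf1, the ligand of Csf1r, kept to 390 ± 9.87 and 359 ± 38.2 in K298E cells while vector cells went from 424 ± 30.6 to 156 ± 5.29 (1.30 ± 0.11, adjusted p = 4.26e-11, limma).

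By Pearson correlation over the 16 group means, which share lines and times, the genes most like Il2ra were Galnt1, a glycosyltransferase (0.951), and Podxl, a sialomucin (0.94). Those most like Il18r1 were Adam8, a surface metalloprotease (0.956), and the phosphatase gene Ptpn3 (0.937). Csf3r was closest to Ilk (0.959) and Pcyt1a (0.958), and Csf2rb to Dhrs1 (0.925) and the macrophage marker Adgre1 (0.858). The nearest to Csf2ra and Kit, which were near the floor, were Ptges3l (0.849) and Cd53 (0.838), and Atp11b (0.836) and Tomm20 (0.829). Those nearest to Il6ra were Amot (0.838) and Atp1b3 (0.834). On their main probe sets, Csf1r and Il3ra spanned less than 1 on the log2 scale over the group means and were not matched. The other Csf1r probe sets spanned more, 3.39 on 1419872_at and 2.6 on 1419873_s_at. Among the receptors themselves, each by its main probe set, Il18r1 was most like Csf1r (0.76) and Il2ra ran against Csf2rb (-0.50). These values over 16 points describe the lines as much as the genes.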

How the data were processed

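Probe set intensities of 48 arrays (Affymetrix MOE430_2) were used as the submitters deposited them: MAS5 signals on a linear scale, per the submitters' processing notes; the MAS5 version is not given in the sources used here. The table held 45101 probe sets, 64 of them controls, which were not used. By the platform annotation, 34945 of the remaining 45037 have 1 symbol, 932 have several and 9160 have none; old symbols were replaced through gene identifiers with those of a RefSeq table (GRCm38.p6). Promoter windows were RefSeq sequences. Of the receptor genes, 8 had a window.

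The deposited intensities were transformed to log2(signal + 3), with the 20th percentile of the signals, 3, as pseudocount, which understates changes of dim genes. A probe set was tested if 1 group mean exceeded the median log2 value, 4.09 (a signal of 14); 27167 were, among them 14 of the 16 of the receptor genes and the shared one, and 12800 genes. Linear models with 16 group means and 32 residual degrees of freedom used limma 3.58.1 with a variance trend and two-sided tests (R 4.3.3; statmod 1.5.0) after a test on simulated data. Each gene is represented by its tested probe set of highest mean. The number of arrays limits the precision, since arrays give no counts. From each other list the text names up to 2 highest and 2 lowest genes past the threshold at 12 h, and for each receptor gene the 2 nearest patterns. The members and lists were chosen with earlier results of these data known. Own changes at 6 h were added after seeing the data.

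Replicate numbers were compared over 360 pairs of same-numbered arrays of different groups: the correlation of their deviations from the group means had a median of 0.01 and exceeded 0.1 in 8, so the numbers were not taken to pair arrays. Alternatives were 10 other settings and arrays left out one at a time or by number.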

Additional observations from a re-analysis of the deposited data

Results flagged for a closer look

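The differences in mean change over 6, 9 and 12 h between fusions that passed the limma test are listed here by receptor, since the same contrast from 0 h differed between lines. For WT minus K298E they were -1.93 and -2.50 on the Il2ra probe sets, -1.06 for Il18r1 and -0.30 for Csf2rb on 1455660_at (log2). For WT minus Δ(177-191) they were -1.11 and -1.03 for Il2ra, -1.28 for Csf3r, -0.50 for Il3ra, -0.80 and -0.73 on the Csf2rb probe sets 1455660_at and 1421326_at, -0.84 on the probe set shared by Csf2rb2 and Csf2rb, and 0.88 on the Csf1r probe set 1419872_at. Groups held 3 arrays, so no group was tested for a single distant array.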

How the results depend on the processing

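Of 330 single changes of receptor probe sets, no called one changed sign under 10 other settings (3168 values: 3068 kept their call, 58 lost it, 42 gained it) or with arrays left out (16830 values: 16635, 163 and 32). The counts of receptor genes called stayed within 1.5 times the reported count in 200 of 220 cases under other settings and 1076 of 1122 with arrays left out. Median centring of arrays lowered the counts to 3 for the Δ(177-191) relative change at 12 h, 3 at 9 h and 1 at 6 h, to 3 and 1 for that line's own change at 12 and 6 h, to 1 for the own change of K298E at 6 h, of WT at 12 h and of vector at 12 h, to 0 for vector at 6 h, and to 1 for WT at 0 h and for WT relative at 6 h. It moved the median change of all genes from -0.07 to 0.13 (WT own change at 12 h) and from -0.03 to 0.17 (WT minus Δ(177-191)), and the share of calls that were higher in the latter from 56.3% to 80.7%; for WT relative at 12 h that share went from 53.1% to 77.3% and for K298E from 60.1% to 91.9%. Fitting only the groups compared gave 3 for Δ(177-191) relative at 9 h, 1 for K298E own at 6 h and 1 for WT at 0 h. Quantile normalization gave 2 for K298E relative at 9 and at 12 h and 1 for vector at 6 h, array weights gave 2 for K298E relative at 12 h, and the mean over all probe sets of a gene gave 2 for K298E relative at 12 h and 1 for WT own at 12 h. The cause was not tested. With arrays left out, the counts ran from 2 to 5 for Δ(177-191) own at 12 h, 3 to 5 for that line relative at 9 and at 12 h and 1 to 3 at 6 h, 1 to 3 for K298E own at 6 h, 1 to 2 for K298E relative at 12 h, 1 to 3 for WT at 0 h, 1 to 2 for WT own at 12 h, 1 to 3 at 6 h, 1 to 2 for WT relative at 6 and at 9 h and 1 to 2 for vector own at 6 h. A fit with the replicate block gave 5 for Δ(177-191) relative at 12 h and moved no count by over 1.5 times. Signals at or under 14, as in Csf2ra and Kit, limit what could be read.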
